A study of Mus musculus with 8 samples.

Results

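The genes described here are 9 retinoid metabolism and binding genes, Rbp4, Stra6, Dhrs3, Aldh1a1, Aldh1a2, Aldh1a3, Crabp1, Cyp26b1 and Rarb, taken by symbol from the 32285 genes of the count tables. Each symbol matched a single gene row in all 8 libraries. All cells came from C57BL/6 mice with no transgene stated, the stromal cells from 2 mice. The libraries were droplet-based single-cell 3' RNA libraries, 2 for each of 4 groups. The first group was stromal cells without EpCAM, an epithelial surface protein, from colon assembloids. Assembloids are colon organoids embedded in Matrigel with cultured colon stromal cells and grown on a shaker in a medium that lacks noggin and the Wnt-side factors (R-spondin 1, surrogate Wnt and CHIR-99021). The second group was the epithelial cells of such assembloids. The third was organoids without stroma, kept in a medium with noggin and those factors, and the fourth was epithelium from the colon itself, so medium and stroma differed together between cultures. Stroma of the colon itself was not analysed here, and the stromal libraries hold cultured cells.

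Retinoic acid is made from vitamin A inside cells. RBP4 carries retinol in blood and STRA6 is its cell surface receptor. Retinol dehydrogenases make retinaldehyde, DHRS3 reduces it back to retinol, and the ALDH1A enzymes oxidise it irreversibly to retinoic acid. CRABP1 binds retinoic acid in the cytosol, CYP26B1 hydroxylates it for removal, and RARB is a nuclear receptor for it whose own gene is a classical retinoic acid target. In the gut, retinoic acid is best known for its roles in immune cell homing and epithelial differentiation.

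In the mouse genome (GRCm38, GENCODE vM21 gene spans) Aldh1a1 lies at chr19:20492715-20643465, Rbp4 at chr19:38116629-38125281, Aldh1a2 at chr9:71215789-71296243, Crabp1 at chr9:54764748-54773110 and Stra6 at chr9:58063788-58153996. Aldh1a3 lies at chr7:66390890-66427517, Rarb at chr14:16430839-16819156, Dhrs3 at chr4:144892827-144928209 and Cyp26b1 at chr6:84571414-84593908. Each is an annotated gene whose 3' ends were counted, and Stra6 alone shares its strand with another annotated gene, Gm16131, so its counts are uncertain to that extent.

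The Rarb promoter is shown because it is the textbook site of retinoic acid control among these genes. RefSeq promoter windows (GRCm38.p6, 250 bases before to 50 after each start) were found for 8 of the 9 genes, 15 windows in all, and were searched on both strands for the retinoic acid response elements DR1, DR2 and DR5, direct repeats of the receptor half-site with a spacer of 1, 2 or 5 bases. Among the 15 windows, 1 held such a repeat, that of Rarb, against 0.588% of all 32851 windows. It was a DR5, which 0.0974% of all windows hold, and it starts 53 bases before the transcript start. The 250 bases before that start are chr14:16575477-16575726 on the minus strand, inside the annotated span of Rarb. Of 38 other retinoid genes with windows, 2 held a repeat, 1 of them a DR5 before the start of Cyp26a1, which encodes another retinoic acid hydroxylase. Capitals mark the half-sites, and each repeat is written in the direction of the half-site:
Rarb promoter: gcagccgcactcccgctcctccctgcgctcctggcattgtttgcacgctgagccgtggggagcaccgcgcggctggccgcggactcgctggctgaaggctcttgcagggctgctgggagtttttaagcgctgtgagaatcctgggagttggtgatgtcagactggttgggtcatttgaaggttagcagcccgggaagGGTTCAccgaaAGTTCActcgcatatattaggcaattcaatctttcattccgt
Rarb repeat: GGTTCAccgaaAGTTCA
Cyp26a1 repeat: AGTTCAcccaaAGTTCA

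After removal of cells with under 500 genes or over 10% mitochondrial UMIs (unique molecular identifiers, 1 per captured RNA molecule), 18068 stromal-library cells, 37132 assembloid, 12906 organoid and 9002 tissue epithelial-library cells remained. These are not the cell numbers the study states for its own filtered sets. The study states fewer stromal and far fewer assembloid epithelial cells, and more organoid and tissue epithelial cells. Of the tissue barcodes 38.7% and 25.4% passed here, against 89.3% and 55.1% of the assembloid epithelial ones. Median UMIs per cell ran from 3444 to 35219 between libraries, and any pair of libraries shared 13 to 141 cell barcodes. Cells were assigned to a class by marker genes, none of which is a retinoid gene described here. Among these were 7578 and 8644 fibroblasts in the stromal libraries and 371 and 192 in the assembloid epithelial libraries. Levels are CPM, a gene's UMIs in the summed cells of a class scaled to the total UMIs of those cells in the usual way, given for library 1 and then library 2. They measure RNA of a class, so fewer expressing cells and less RNA per cell cannot be told apart unless cells are counted. Stromal and epithelial libraries were quantified with different software releases, so values from the 2 kinds are set side by side without a test. Epithelial cells of assembloids held fibroblast marker RNA. The summed level of 8 fibroblast marker genes was 223 and 35.5 CPM in epithelial cells of assembloids, against 11899 and 11449 in fibroblasts of the same libraries. It was 0.576 and 1.02 in organoid and 6.28 and 5.22 in tissue epithelial cells, nearly all of it Pdgfrb (0.549 and 0.981 in organoids, 6.26 and 5.17 in tissue), and each of the other 7 markers was at most at 0.0271 there.

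**Figure D1:**
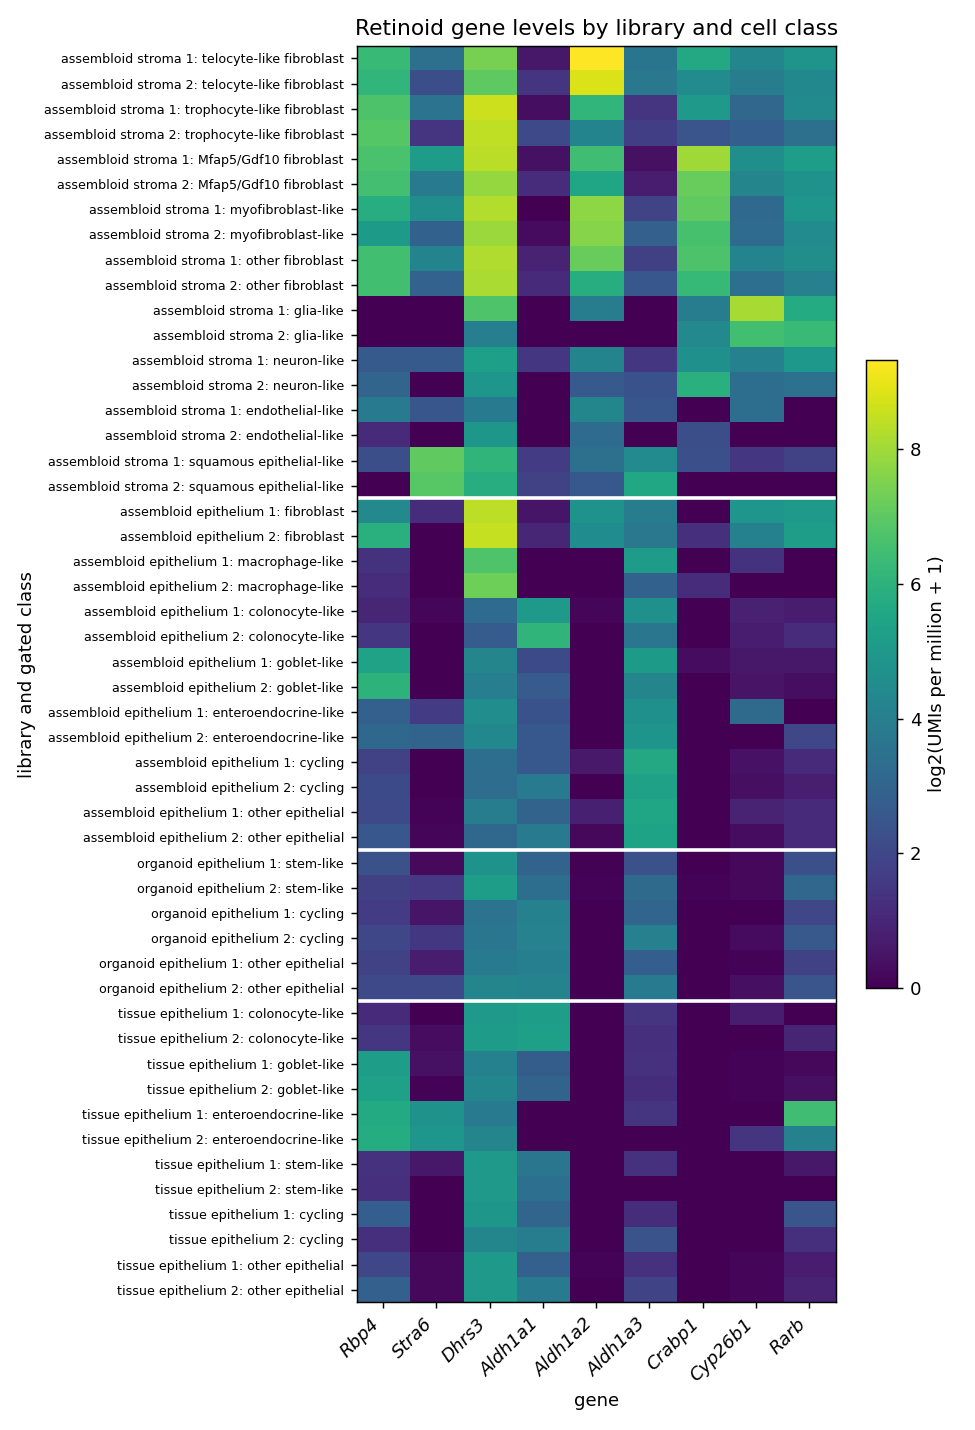
Level of each of the 9 genes (columns) in each library and gated cell class (rows), as log2(CPM + 1), with white lines between the 4 sample groups. Aldh1a2 and Crabp1 are bright in the fibroblast rows of the stromal libraries and dark in epithelial rows, Aldh1a1 is brightest in colonocyte-like rows, Aldh1a3 in assembloid epithelial and squamous-like rows, Rbp4 in fibroblast, goblet-like and tissue enteroendocrine-like rows, Stra6 in squamous-like rows and Cyp26b1 in glia-like rows.

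Fibroblasts and epithelial cells divided these genes between them. In the assembloid epithelial libraries, where both cell types were captured together, Dhrs3, Rarb, Cyp26b1, Aldh1a2 and Rbp4 were higher in fibroblasts, and Aldh1a1 and Aldh1a3 were higher in epithelial cells. The epithelial levels are those of all epithelial cells summed, and goblet-like cells taken alone did not lie below the fibroblasts in Rbp4. Of the 9 genes, 8 passed the filter on low counts, and 5 were higher, 2 lower and 1 not called, in edgeR's quasi-likelihood test with Benjamini-Hochberg adjustment over all genes (adjusted p under 0.05). Among the 19209 genes tested, 44% were called, 19.8% higher and 24.2% lower in fibroblasts. The median log2 fold change of the 8 genes was 3.63, against -0.38 over all genes tested.

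Of the genes that move retinol or return it, Dhrs3 stood at 333 and 358 CPM in fibroblasts and at 13.2 and 8.33 in epithelial cells. Both fibroblast values lay far above both epithelial values (log2 fold change 4.73 ± 0.32, SE, adjusted p = 1.16e-05 in edgeR). Rbp4 was at 19.96 and 60.1 CPM in fibroblasts and at 3.88 and 8.32 in epithelial cells (log2 fold change 2.49 ± 0.47, adjusted p = 0.00165 in edgeR). The Rbp4 groups did not overlap, but the share of all genes without overlap was not counted. Its 2 fibroblast values lay further apart than the nearest values of the 2 groups. Goblet-like cells of the same libraries held 40.4 and 63.3 CPM of Rbp4, no less than the fibroblasts, so the difference is one of all epithelial cells summed. Stra6 had 3 UMIs in library 1 fibroblasts and 0 in library 2, which allows up to 1.48 CPM there, and was not called (log2 fold change 2.59 ± 1.44, adjusted p = 0.173 in edgeR).

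The 3 retinaldehyde dehydrogenases fell on different sides. Aldh1a2 was at 26.0 and 22.2 CPM in the fibroblasts and at 0.683 and 0.112 in epithelial cells of the same libraries (log2 fold change 5.58 ± 0.78, adjusted p = 0.000261 in edgeR). Aldh1a1 gave 1 and 2 UMIs in the fibroblasts, 0.434 and 0.985 CPM, and 7.95 and 18.0 CPM in epithelial cells. Over both libraries its epithelial level was 17.2 times the fibroblast level (95% interval 5.88 to 83.5, counting error only), and it was called lower in fibroblasts (adjusted p = 0.000349 in edgeR). Aldh1a3 was at 14.3 and 12.3 CPM in fibroblasts and 43.2 and 36.8 in epithelial cells (log2 fold change -1.83 ± 0.32, adjusted p = 0.00115 in edgeR). Each dehydrogenase kept its side in both libraries.

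Among genes downstream of retinoic acid, Cyp26b1 was at 28.2 and 16.2 CPM in fibroblasts against 0.798 and 0.309 in epithelial cells (log2 fold change 5.03 ± 0.73, adjusted p = 0.000336 in edgeR). Rarb was at 30.8 and 36.4 CPM against 1.12 in both (log2 fold change 4.66 ± 0.35, adjusted p = 1.27e-05 in edgeR). Crabp1 had 0 UMIs in these fibroblasts of library 1, which allows up to 1.30 CPM, and 3 UMIs in library 2, 1.48 CPM (95% interval 0.305 to 4.32), and was not tested. In the stromal libraries the fibroblasts held 89.5 and 52.4 CPM of Crabp1 and 214 and 132 of Aldh1a2, both above the fibroblasts caught in epithelial libraries. Rarb, at 24.6 and 15.9 CPM there, and Cyp26b1, at 15.4 and 10.1, were below them. So were Aldh1a3, at 3.71 and 5.60, and Dhrs3, at 294 and 261. Rbp4, at 89.1 and 88.7 CPM, and Stra6, at 16.0 and 5.23, were above them. Aldh1a1, at 0.625 and 1.66, overlapped with them. Software release, selection of cells and culture cannot be told apart in this last comparison.

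**Figure D2:**
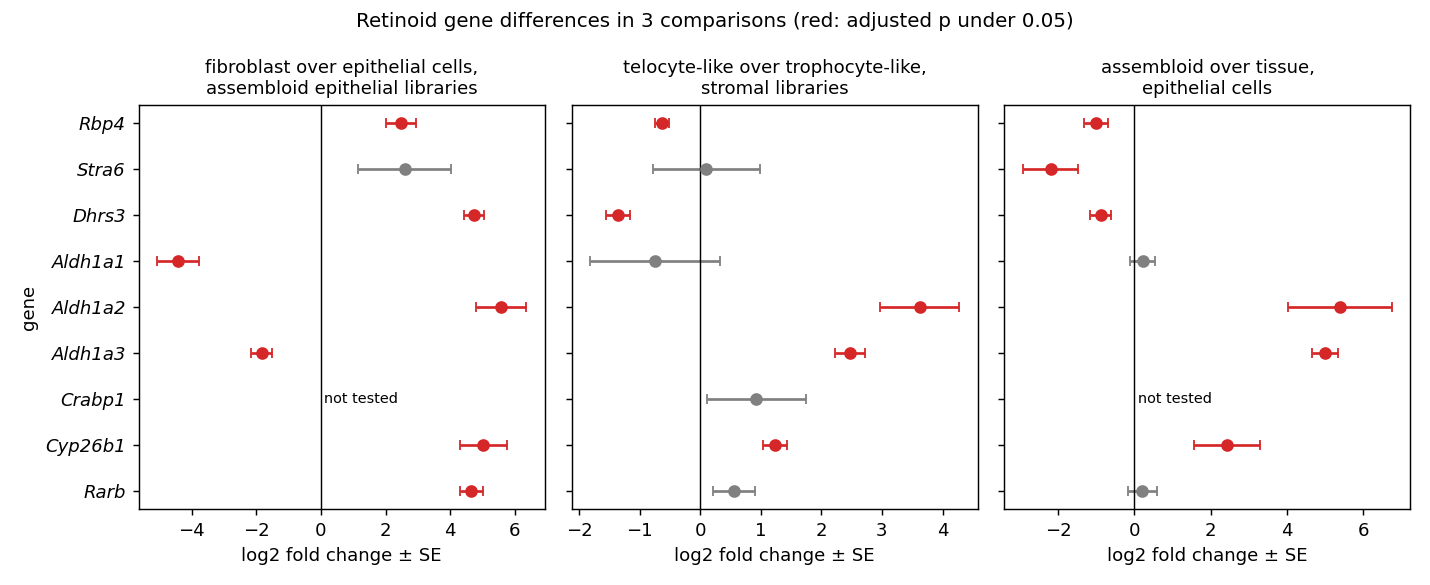
Log2 fold change with its standard error for each of the 9 genes (rows) in 3 comparisons: fibroblast over epithelial cells of the 2 assembloid epithelial libraries, telocyte-like over trophocyte-like fibroblasts of the 2 stromal libraries, and assembloid over tissue epithelial cells (2 libraries each). Red points have an adjusted p under 0.05 in edgeR, grey points do not, and Crabp1 was not tested in the fibroblast over epithelial and the assembloid over tissue comparison.

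Fibroblast RNA in the epithelial sums bears on what the epithelial values mean. Of the 8 fibroblast markers, 7 stood in epithelial cells at 1.62 to 2.11% of their fibroblast level in library 1 and at 0.252 to 0.369% in library 2. The eighth, Pdgfrb, was at 3.11% and 1.93%, and it is the marker that tissue epithelial cells also held. Aldh1a2 (2.62% and 0.507%) and Cyp26b1 (2.83% and 1.90%) lay above the 7 markers and below Pdgfrb in both libraries. Rarb (3.62% and 3.08%) and Dhrs3 (3.97% and 2.33%) lay above all 8 markers, as did Rbp4 (19.4% and 13.9%). Aldh1a3 and Aldh1a1, at 302% and 299% and at 1833% and 1826%, were more abundant in the epithelial cells than in the fibroblasts. The part of fibroblast RNA in each epithelial value, and of epithelial RNA in each fibroblast value, was not tested.

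**Figure D3:**
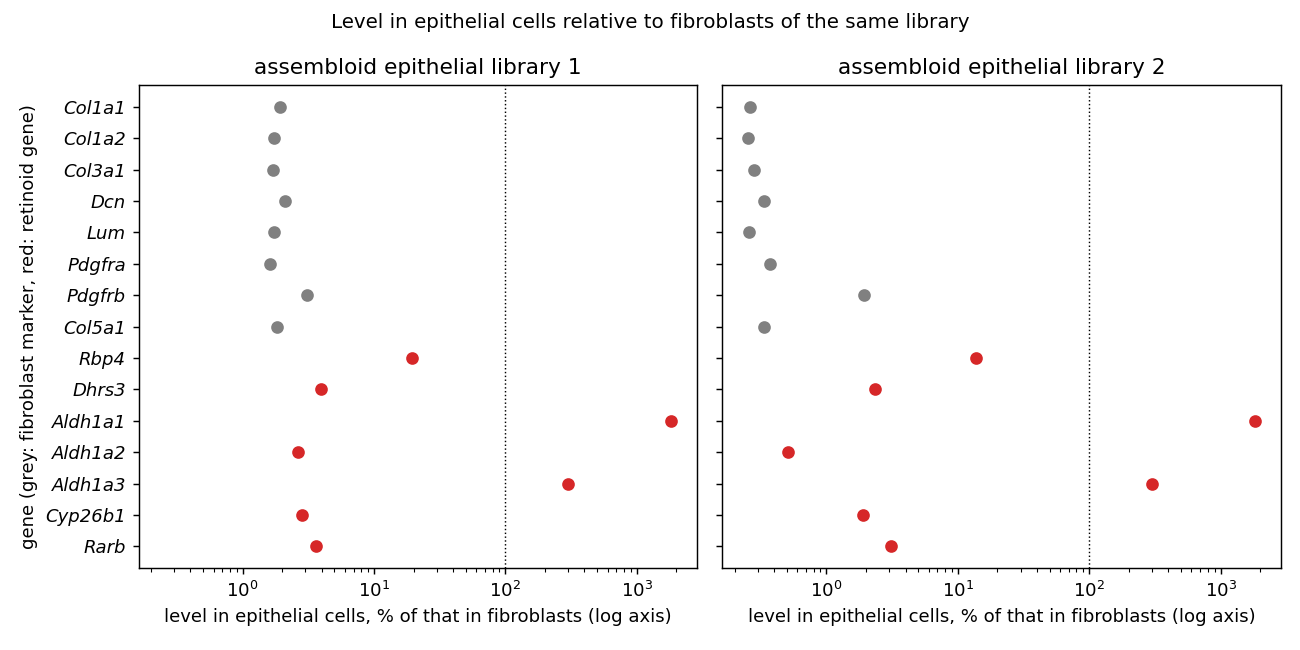
Level in epithelial cells as a percentage of the level in fibroblasts of the same assembloid epithelial library (log axis; dotted line at equal levels), for 8 fibroblast markers (grey) and 7 retinoid genes (red). Aldh1a2 and Cyp26b1 sit above 7 of the 8 markers and below Pdgfrb in both libraries, Rarb and Dhrs3 above all 8, Rbp4 at 13.9 to 19.4%, and Aldh1a1 and Aldh1a3 at 299% or more.

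The fibroblasts themselves were not uniform. Stromal fibroblasts of the colon include telocyte-like cells, which lie against the epithelium and secrete Wnt5a and BMPs, and trophocyte-like cells, which express Cd34, Rspo3 and BMP antagonists and feed the crypt base. By a score of these marker lists, 1232 and 1461 fibroblasts were telocyte-like and 1556 and 2290 trophocyte-like. A further 252 and 311 held UMIs of both Mfap5 and Gdf10. The score was a continuum, and 1309 and 1484 fibroblasts lay within 0.1 of a class boundary. All classes were summed within the same 2 libraries and so share animals and culture.

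Aldh1a2 had the largest fold change of the 9 genes between telocyte-like and trophocyte-like fibroblasts. It stood at 637 and 453 CPM in telocyte-like fibroblasts and at 68.8 and 17.3 in trophocyte-like fibroblasts, with no overlap (log2 fold change 3.62 ± 0.65, adjusted p = 0.0241 in edgeR). Telocyte-like cells made up 13.4% and 19.4% of all UMIs of the libraries but 46.7% and 69.0% of those of Aldh1a2. With each cell thinned to 5000 UMIs, 80.5% and 67.9% of 1216 and 1454 telocyte-like cells had an Aldh1a2 UMI, against 17.7% and 5.38% of 1527 and 2269 trophocyte-like cells and 4.83% of 538 squamous-like cells of library 1. Without thinning the telocyte-like shares were 88.9% and 81.5%, the trophocyte-like shares 32.2% and 13.0% and the squamous-like share 20.9%, at median depths of 15815.5 and 16861, 13358.5 and 11440.5 and 21237 UMIs. Between the extremes, myofibroblast-like cells held 212 and 196 CPM and the Mfap5/Gdf10 cells 86.6 and 45.3.

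Along with Aldh1a2, 2 more of the 9 genes were higher in telocyte-like fibroblasts and 2 were lower, while 4 were not called. Over the 14100 genes tested, 13.1% were called, 6.7% higher and 6.43% lower. Aldh1a3 was at 11.3 and 12.2 CPM against 1.67 and 2.32 (log2 fold change 2.47 ± 0.25, adjusted p = 0.00631 in edgeR). Cyp26b1, the retinoic acid hydroxylase, was at 18.2 and 14.5 CPM against 7.45 and 5.85 (log2 fold change 1.23 ± 0.19, adjusted p = 0.0176 in edgeR). Aldh1a2 and Aldh1a3 make retinoic acid and Cyp26b1 removes it. In none of the 3 genes did the classes overlap, but the share of all genes without overlap was not counted, so this adds nothing to the calls.

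Dhrs3, which works against the dehydrogenases by returning retinaldehyde to retinol, ran the other way. It was at 171 and 128 CPM in telocyte-like and 390.1 and 344 in trophocyte-like fibroblasts (log2 fold change -1.36 ± 0.20, adjusted p = 0.0151 in edgeR). Rbp4, the retinol carrier, was at 78.9 and 69.2 CPM in telocyte-like against 103 and 115 in trophocyte-like fibroblasts (log2 fold change -0.63 ± 0.12, adjusted p = 0.0284 in edgeR). Neither gene overlapped between the classes, where the same limit holds.

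Rarb was at 27.4 and 19.6 CPM in telocyte-like and 20.9 and 9.91 in trophocyte-like fibroblasts, and Crabp1 at 48.2 and 21.6 against 31.47 and 4.47. Library 1 exceeded library 2 in both classes for both genes, and neither was called (adjusted p = 0.301 and 0.468 in edgeR). With the library as a block, which compares the classes within each library, both were called higher in telocyte-like cells, Rarb with a log2 fold change of 0.60 (adjusted p = 0.0154 in edgeR) and Crabp1 with 1.17 (adjusted p = 0.0423 in edgeR). Without the block, the fold change of Crabp1 was 0.93 and turned to -0.11 in cells with at most 5% mitochondrial UMIs. The block raised the number of genes called from 1851 to 5022. Stra6 (log2 fold change 0.10 ± 0.88, adjusted p = 0.95 in edgeR) and Aldh1a1 (-0.74 ± 1.08, adjusted p = 0.665 in edgeR) had standard errors too wide to place them in either class.

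**Figure D4:**
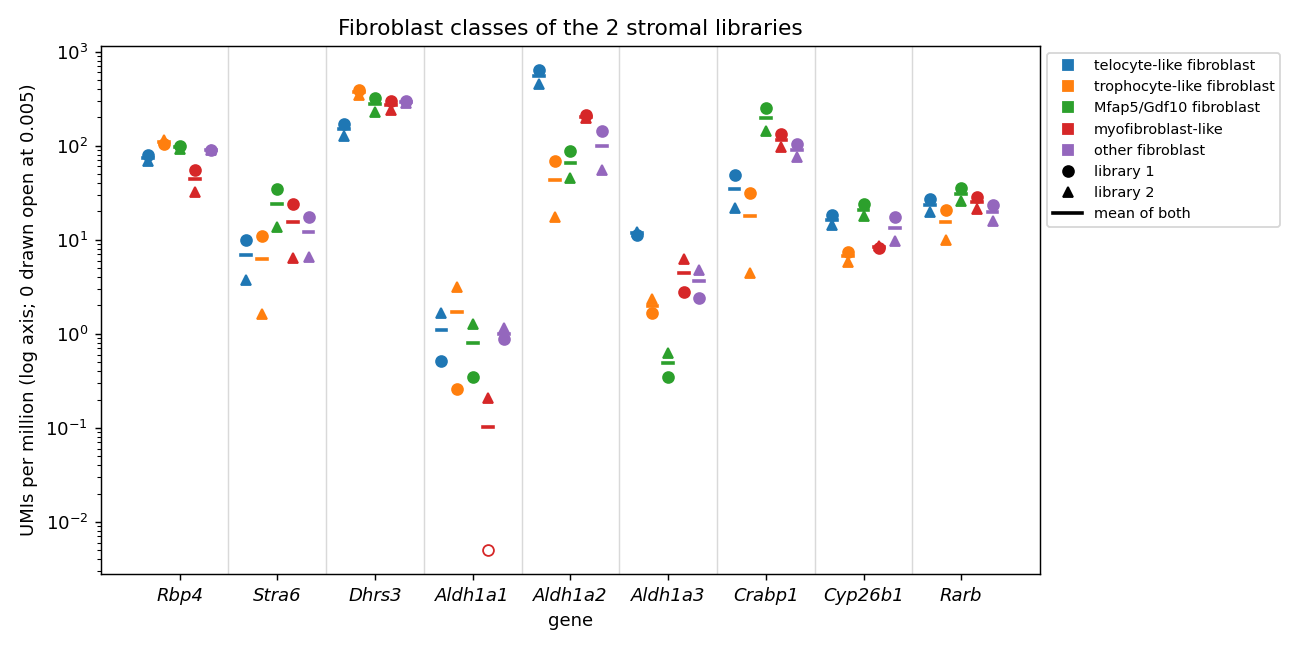
CPM (log axis) of each gene in 5 fibroblast classes of the 2 stromal libraries, with a circle for library 1, a triangle for library 2 and a bar at their mean. Aldh1a2 is highest in telocyte-like cells at 637 and 453, Crabp1 in Mfap5/Gdf10 cells at 251.1 and 141, and Dhrs3 in trophocyte-like cells at 390.1 and 344.

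Crabp1 was highest in the Mfap5/Gdf10 fibroblasts. Its level was 251.1 and 141 CPM there, 132 and 95.5 in myofibroblast-like cells, 104 and 75.3 in fibroblasts of no class, and lower in the telocyte-like and trophocyte-like classes. Most Crabp1 UMIs lay outside the Mfap5/Gdf10 cells, which gave 1438 of 11445 and 899 of 6979 fibroblast UMIs. The more numerous fibroblasts of no class gave 7286 and 4898. The Mfap5/Gdf10 cells did not overlap with the telocyte-like or the trophocyte-like cells in Crabp1. The share of all genes without overlap was not counted, so this adds nothing to the tests. The unpaired test called neither difference, with a log2 fold change of 3.44 ± 0.88 over trophocyte-like cells (adjusted p = 0.228 in edgeR) and 2.51 ± 0.84 over telocyte-like cells (adjusted p = 0.122 in edgeR). With the library as a block both were called, at 3.76 (adjusted p = 0.00251 in edgeR) and 2.60 (adjusted p = 0.00248 in edgeR). The marker lists were chosen with earlier results of these data known, so these values describe the class and are not independent support. Crabp1 RNA was concentrated in few cells. A Crabp1 UMI was found in 13.4% and 7.103% of all fibroblasts (6.9999% and 3.74% when thinned to 5000 UMIs) and in 7.82% of squamous-like cells of library 1 (1.86% thinned), and the 2.78% and 1.58% of fibroblasts with at least 10 Crabp1 UMIs carried 85.1% and 87.8% of its UMIs. For Dhrs3 the corresponding cells, 13.1% and 8.98% of fibroblasts, carried 36.0% and 29.1%. Of the Mfap5/Gdf10 cells, 33.3% and 23.8% had a Crabp1 UMI (20.3% and 16.1% thinned), so most cells of the class had none at this depth.

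Against trophocyte-like fibroblasts, 0 of the 9 genes were called in the Mfap5/Gdf10 cells, and 4 of 14100 genes tested were called in all, 0.0284% (0% higher and 0.0284% lower). At an unadjusted p under 0.05 there were 4 of the 9, Cyp26b1, Aldh1a3, Crabp1 and Rarb. The share of all genes at that unadjusted threshold was not counted, so the 4 cannot be set against it. DESeq2 called 1 of the 9, Cyp26b1, and called more genes in all than edgeR did. Cyp26b1, at 23.8 and 17.8 CPM, had the smallest adjusted p (log2 fold change 1.60 ± 0.20, adjusted p = 0.073 in edgeR, unadjusted p = 0.000181). With the library as a block, 656 genes were called, among them 6 of the 9: Crabp1, Stra6, Rarb and Cyp26b1 higher and Aldh1a3 and Dhrs3 lower, at adjusted p from 0.0011 to 0.0488 in edgeR. Stra6, the retinol receptor, was at 34.8 and 13.5 CPM in the Mfap5/Gdf10 cells, 10.8 and 1.61 in trophocyte-like and 9.90 and 3.76 in telocyte-like cells. Against telocyte-like fibroblasts, Aldh1a2 (log2 fold change -3.03 ± 0.64, adjusted p = 0.0428 in edgeR) and Aldh1a3 (-4.52 ± 0.37, adjusted p = 0.00298 in edgeR) were lower in the Mfap5/Gdf10 cells, Aldh1a3 with only 2 and 4 UMIs there (0.349 and 0.629 CPM), so that the size of its fold is uncertain. Dhrs3 was higher (0.90 ± 0.20, adjusted p = 0.047 in edgeR), which makes 3 of the 9 genes, where 8.28% of all genes were called, 4.87% higher and 3.41% lower. The block added Crabp1, Stra6 (log2 fold change 1.84, adjusted p = 0.00435 in edgeR) and Rbp4 (0.40, adjusted p = 0.0467 in edgeR) as higher. It also raised the number of all genes called, as given in the closing section, so the 8.28% is not the share to set these against. Of the 5 genes listed as markers of this class, the median gene stood at only 1.40 and 0.471 CPM in it, so the class is called by the 2 genes that define it.

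Cells of the stromal libraries outside the fibroblasts also held several of these genes. Glia-like cells (31 and 26 cells) had 273 and 89.4 CPM of Cyp26b1 and 52.7 and 79.5 of Rarb, both above every fibroblast class. Squamous epithelial-like cells (550 and 16 cells) had 129.85 and 119.5 CPM of Stra6 and 21.8 and 47.3 of Aldh1a3. Cells that met no gate (733 and 218 cells) had 69.1 and 7.43 CPM of Aldh1a3, and in library 1 they held 1267 of its 2048 UMIs. Squamous marker RNA was present in fibroblasts of library 1 at 0.651% of its level in squamous-like cells (median of 6 markers) and of library 2 at 0.0424%. Stra6 was at 12.4% and 4.38%, above that share in both libraries. The part of squamous RNA in the fibroblast level of Stra6 was not tested.

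The epithelial libraries were compared to ask how these genes differ between epithelium with and without stroma and the colon. Of 8 genes tested between assembloid and tissue epithelial cells, Aldh1a2, Aldh1a3 and Cyp26b1 were higher in assembloids and Rbp4, Stra6 and Dhrs3 lower, while Aldh1a1 and Rarb were not called. The 3 higher and 3 lower stand against 49.2% of 19212 genes called in this comparison, 26.3% higher and 22.9% lower. Organoids against tissue gave 2 higher, Aldh1a3 and Rarb, and 1 lower, Rbp4, with 47% of genes called, 24.2% higher and 22.9% lower. Organoids against assembloids gave 2 higher, Stra6 and Rarb, and 4 lower, Aldh1a2, Aldh1a3, Rbp4 and Cyp26b1, with 52.8% called, 24.3% higher and 28.5% lower. The comparisons share libraries. edgeR's scaling (TMM) moved the fold changes of assembloids over tissue up by 0.35 to 0.42 on the log2 scale from the ratio of the mean CPM, for the 6 genes with at least 20 UMIs in both groups, which gives Aldh1a1 and Rarb, neither called, ratios of -0.14 and -0.18 in place of 0.22 and 0.21. With each library left out in turn, which leaves its group with 1 library whose spread is taken from the other groups, Aldh1a3 stayed called in all 3 comparisons, Rarb and Rbp4 in organoids over tissue, and Stra6 and Rarb in organoids over assembloids. The other called genes lost their call at least once. In assembloids over tissue, Aldh1a2 did so without assembloid 1 or tissue 2, Stra6 without assembloid 1 or either tissue library, and Dhrs3 without assembloid 2 or either tissue library. Cyp26b1 did so without assembloid 1, organoid 2 or either tissue library, and Rbp4 without any library but assembloid 2. In organoids over assembloids, Aldh1a2 did so without assembloid 1 or either organoid library, Rbp4 without assembloid 2 or either organoid library, and Cyp26b1 without assembloid 1, organoid 1 or either tissue library. Calls were gained by Stra6 in organoids over tissue without organoid 1 (2.22, adjusted p = 0.0196 in edgeR) and by Dhrs3 in organoids over assembloids without assembloid 1 (0.94, adjusted p = 0.0137 in edgeR).

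Aldh1a3 was called in all 3 epithelial comparisons. It was at 1.51 and 1.81 CPM in tissue, 6.01 and 12.7 in organoids and 43.2 and 36.8 in assembloids. The 3 groups did not overlap, but the share of all genes without overlap was not counted. The log2 fold change was 4.9955 ± 0.34 for assembloid over tissue (adjusted p = 3.58e-05 in edgeR). It was 2.68 ± 0.31 for organoid over tissue (adjusted p = 0.000313 in edgeR) and -2.31 ± 0.29 for organoid over assembloid (adjusted p = 0.000514 in edgeR). Cycling cells showed the same order, with 1.30 and 4.27 CPM in tissue (2 and 3 UMIs), 7.13 and 15.6 in organoids and 48.0 and 39.5 in assembloids, and goblet-like cells had 1.503 and 1.33 in tissue against 32.9 and 17.7 in assembloids. Epithelial cells of no named class also showed the order, with 1.49 and 2.71 CPM in tissue, 5.93 and 13.4 in organoids and 44.4 and 41.7 in assembloids. Goblet-like and stem-like cells held too few UMIs to show it, since the 23 and 25 goblet-like cells of organoids gave 1 and 0 UMIs, the 11 and 5 stem-like cells of assembloids 0 and 0, which allows up to 21.5 and 63.8 CPM, and the 137 and 62 stem-like cells of tissue 3 and 0.

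Aldh1a1 was called in none of the 3 epithelial comparisons. It was at 12.3 and 16.3 CPM in tissue, 7.95 and 18.0 in assembloid and 14.3 and 15.3 in organoid epithelial cells, and the groups overlapped. Colonocyte-like cells, the absorptive cells of the colon surface, held it at 36.8 and 37.4 CPM in tissue and 30.7 and 67.2 in assembloids, while goblet-like cells held 5.74 and 6.77 and 3.24 and 5.31. In tissue, colonocyte-like cells gave 58.9% and 53.1% of Aldh1a1 UMIs from 19.6% and 23.1% of all UMIs. In assembloids they gave 23.2% and 34.2% from 5.74% and 8.46%, and epithelial cells of no named class gave 66.2% and 51.8%. Aldh1a7, a near-identical paralogue that could share reads with Aldh1a1, was at 6.36 and 6.90 CPM in tissue and 1.46 and 3.30 in assembloid epithelial cells, so the Aldh1a1 values are uncertain to that extent.

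Rbp4 in the tissue epithelium lay mostly in goblet-like cells. In tissue, goblet-like cells, which make mucus, held 35.9 and 39.4 CPM, and hormone-producing enteroendocrine-like cells 51.4 and 53.2, against 1.19 and 1.76 in colonocyte-like cells. Goblet-like cells gave 82.8% and 80.5% of tissue Rbp4 UMIs. Over all epithelial cells Rbp4 was at 13.5 and 18.0 CPM in tissue, 3.88 and 8.32 in assembloids and 2.69 and 3.02 in organoids (assembloid over tissue -1.01 ± 0.32, adjusted p = 0.0286; organoid over tissue -2.23 ± 0.33, adjusted p = 0.000965, log2 scale, edgeR). Goblet-like cells were 45.2% and 41.2% of passing tissue cells, 1.89% and 4.62% of assembloid and 0.472% and 0.311% of organoid cells. These shares come from unlike depths, since goblet-like cells had a median of 1188 and 3053 UMIs in tissue. The median was 4538 and 18683 in assembloids and 22144 and 14381 in organoids. Enteroendocrine-like cells of assembloids stayed below those of tissue, at 6.21 and 7.82 CPM (3 and 8 UMIs), and the few goblet-like cells of organoids were at 11.7 and 10.7 (6 and 4 UMIs). In stem-like cells Rbp4 ran the other way between organoids, at 4.02 and 2.43 CPM, and tissue, at 1.53 and 1.36 (3 and 1 UMIs). Within goblet-like cells, assembloids did not lie below tissue. Rbp4 was at 40.4 and 63.3 CPM in assembloids, called higher than in tissue (log2 fold change 1.01 ± 0.19, adjusted p = 0.00756 in edgeR), though the log2 ratio of the mean CPM was 0.46 and the nearest values, 40.4 and 39.4, lay close.

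Dhrs3 was at 26.1 and 26.9 CPM in tissue, 13.2 and 8.33 in assembloid and 14.4 and 20.3 in organoid epithelial cells, lower in assembloids than in tissue by 0.88 ± 0.28 on the log2 scale (adjusted p = 0.0294 in edgeR). In colonocyte-like cells it was at 31.9 and 33.8 CPM in tissue and 8.50 and 5.48 in assembloids (log2 fold change -1.80 ± 0.24, adjusted p = 0.000699 in edgeR). In goblet-like cells, at 15.9 and 18.3 against 18.0 and 14.8, it was not called (0.47 ± 0.21, adjusted p = 0.108 in edgeR), and the positive sign came from the scaling, since the log2 ratio of the mean CPM was -0.06. Taking all passing cells in place of epithelial ones also turned the sign (0.37, adjusted p = 0.114 in edgeR). Without assembloid epithelium library 2 the epithelial difference fell to -0.52 and was not called (adjusted p = 0.113 in edgeR).

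Rarb was low in the summed epithelial cells of all 3 groups. It was at 1.62 and 0.920 CPM in tissue, 1.12 in both assembloid libraries and 2.91 and 5.15 in organoids. Organoids were above tissue (log2 fold change 1.86 ± 0.38, adjusted p = 0.0048 in edgeR) and above assembloids (1.65 ± 0.37, adjusted p = 0.0066 in edgeR). With cells of at most 5% mitochondrial UMIs neither was called (adjusted p = 0.238 and 0.0809 in edgeR). In tissue, enteroendocrine-like cells (51 and 81 cells) gave 53 and 10 of the 76 and 34 Rarb UMIs. Their Rarb level was 87.9 and 16.1 CPM, with the UMIs in only 9 and 4 cells. Enteroendocrine-like cells of assembloids (43 and 52 cells) had 0 and 3 Rarb UMIs. The tissue enteroendocrine-like cells also gave 16 and 18 of the 25 and 23 UMIs of Stra6.

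Stra6 was at 0.532 and 0.623 CPM in tissue, 0.0731 and 0.122 in assembloids (12 and 13 UMIs) and 0.506 and 2.60 in organoids. Assembloids were below tissue (log2 fold change -2.19 ± 0.73, adjusted p = 0.0355 in edgeR) and organoids above assembloids (3.74 ± 0.73, adjusted p = 0.00339 in edgeR). The tissue and organoid values overlapped, and that difference was not called (1.55 ± 0.66, adjusted p = 0.0872 in edgeR). Enteroendocrine-like cells of assembloids held 2.07 and 6.85 CPM of Stra6 (1 and 7 UMIs), against 26.5 and 29.0 in tissue.

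Aldh1a2 and Cyp26b1 gave few UMIs in tissue and organoid epithelium. Aldh1a2 had 1 and 0 UMIs in tissue and 4 and 2 in organoid epithelial cells, against 112 and 12 in assembloids. The assembloid level was 38.4 times that in tissue (95% interval 6.77 to 1530, counting error only). Without assembloid epithelium library 1 its log2 fold change over tissue fell from 5.39 to 3.41 and was not called (adjusted p = 0.0643 in edgeR). Cyp26b1 had 9 and 3 UMIs in tissue, 10 and 24 in organoids and 131 and 33 in assembloids (assembloid over tissue 2.42 ± 0.86, adjusted p = 0.0463 in edgeR, and not called with the replicate as a block). Leaving out that library brought Cyp26b1 to 1.45 (adjusted p = 0.208 in edgeR). In library 1, which held the larger share of fibroblast marker RNA, both genes stood higher than in library 2 and their share of the fibroblast level lay above 7 of the 8 fibroblast markers and below Pdgfrb, as given above. The part of fibroblast RNA in these 2 differences was not tested. Crabp1 had 4 and 0 UMIs in assembloid, 0 and 1 in organoid and 0 and 0 in tissue epithelial cells and was not tested, and the 3-count limit in tissue was 0.0638 and 0.0812 CPM.

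**Figure D5:**
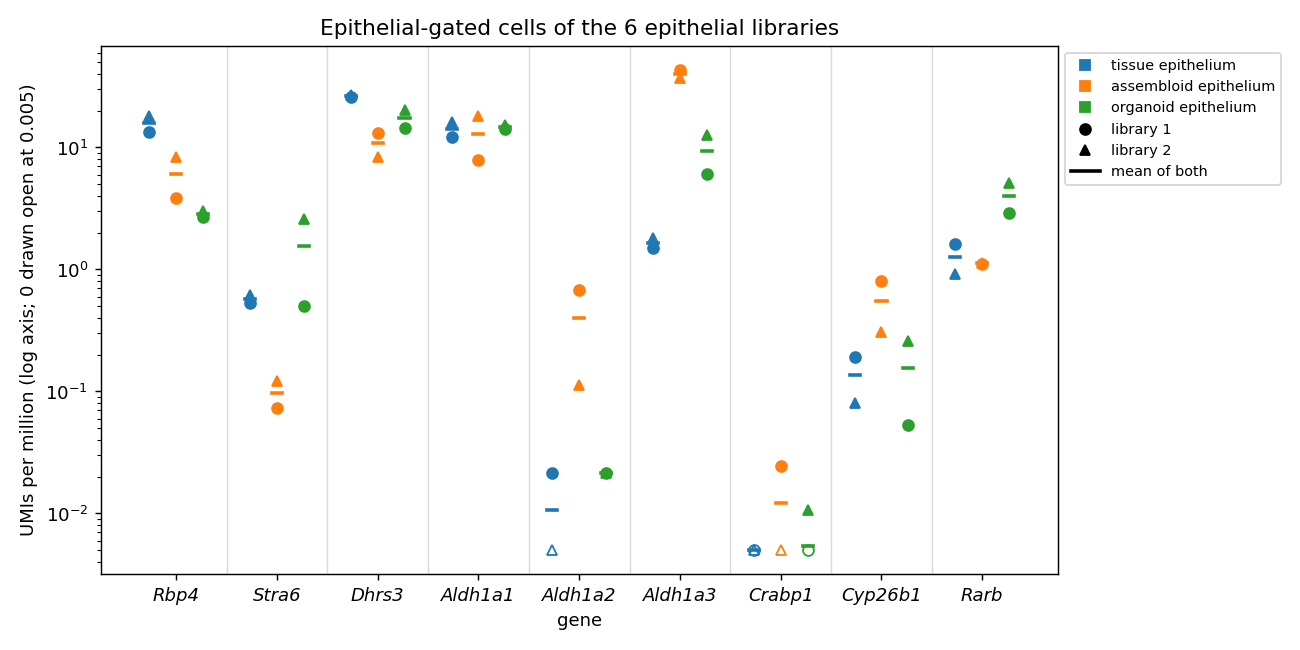
CPM (log axis) of each gene in epithelial cells of tissue, assembloids and organoids, with a circle for library 1, a triangle for library 2, a bar at their mean and zeros drawn open at the bottom. Aldh1a3 separates the 3 groups without overlap, Aldh1a1 does not separate them, Rbp4 is highest in tissue, and Aldh1a2 and Cyp26b1 are highest in assembloids. The share of all genes that separate the groups was not counted.

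A list of 48 other retinoid genes gives the pathway around these 9. Between fibroblasts and epithelial cells of assembloids, 42 of the 48 were tested, with 17 higher in fibroblasts and 8 lower (all genes 44% called, 19.8% higher and 24.2% lower) and a median log2 fold change of 0.58, against -0.38 over all genes. The highest were the retinoic acid response genes Nr2f1 (6.09 ± 0.68), Rarres2 (6.03 ± 0.67) and Meis1 (5.96 ± 0.57), with 7 of 10 genes of that group higher and 0 lower. The lowest were Bco1 and Bco2, the carotenoid-cleaving oxygenases, with 0 fibroblast UMIs each, and Ttr, the blood partner of RBP4 (-5.24 ± 0.90). Those zeros allow up to 1.30 and 1.48 CPM in the fibroblasts. Epithelial cells held only 0.969 and 0.993 CPM of Bco1 and 1.04 and 1.20 of Bco2. In each library that limit lies above the epithelial level, so the fold changes of Bco1 and Bco2 are uncertain. Between telocyte-like and trophocyte-like fibroblasts, 2 of 31 tested genes were higher and 5 lower (all genes 6.7% and 6.43%). The higher were Rdh10 (1.01 ± 0.20, adjusted p = 0.0278 in edgeR), which makes retinaldehyde from retinol, and Scarb1 (0.65 ± 0.12, adjusted p = 0.0275 in edgeR), a carotenoid and lipoprotein receptor. The 5 lower genes included Meis1 (-1.65 ± 0.13, adjusted p = 0.00318 in edgeR) and Meis2 (-0.64 ± 0.13, adjusted p = 0.0301 in edgeR). Against telocyte-like cells the Mfap5/Gdf10 cells had 4 higher and 1 lower of 31 (all genes 4.87% and 3.41%), among them Cyp1b1 (3.82 ± 0.66, adjusted p = 0.0257 in edgeR) and Meis1 (1.18 ± 0.13), with Tgm2 lower (-1.37 ± 0.17). Against trophocyte-like cells 0 of 31 were called by edgeR's adjusted p, where 0.0284% of all genes were called. At an unadjusted p under 0.05 there were 9 of 31. The share of all genes at that unadjusted threshold was not counted, so the 9 cannot be set against it.

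In the epithelium, assembloids over tissue had 14 higher and 12 lower of 42 other retinoid genes (median -0.04, all genes 0.03), where 26.3% of all genes were called higher and 22.9% lower. Among the most higher were Rarres2 and Meis2, which stood in assembloid epithelial cells at 3.38% and 0.470% and at 2.27% and 0.809% of their fibroblast level. Both lay above the 7 markers other than Pdgfrb in both libraries, and Rarres2 above all 8 in library 1. The most lower were Ttr (-3.91 ± 0.35), Lrat (-3.55 ± 0.60), the enzyme that esterifies retinol, and Adh1 (-3.47 ± 0.33), an alcohol dehydrogenase that can oxidise retinol. Organoids over tissue had 11 higher, led by Cyp1b1, Meis2 and Isx, and 14 lower (all genes 24.2% and 22.9%), with Rdh16 (-7.94 ± 0.32), Rbp2 (-7.19 ± 0.29), the cytosolic retinol binder of enterocytes, and Ttr (-5.98 ± 0.39) at the bottom. Organoids over assembloids had 8 higher, led by Cyp1b1, Stra6l and Isx, and 16 lower (all genes 24.3% and 28.5%), with Rarres2, Nr2f1 and Rbp2 (-5.62 ± 0.28) at the bottom. Isx, an intestinal repressor of vitamin A uptake genes, was at 5.49 and 7.53 CPM in tissue, 22.5 and 26.3 in assembloids and 87.8 and 107 in organoids. Rdh16 has close paralogues, so its counts may be split between them.

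The genes whose levels ran most like these 9 were sought by the correlation of log2(CPM + 1) over 43 library-by-class sums of at least 50 cells, among 13560 genes of which none was a gating marker, as a description only, since sums of one library share depth and background. Aldh1a2 ran closest to Wnt2 (Pearson r = 0.976), Ccl11 (0.973) and Foxf2 (0.970), and Crabp1 to Cldn11 (0.960), Msx1 (0.958) and A2m (0.951). Cyp26b1 ran closest to Bdkrb2 (0.969), Dhrs3 to Tmem38b (0.938), Rarb to Kirrel (0.924), Rbp4 to Agt (0.894), Aldh1a1 to Plpp2 (0.886), Stra6 to 1700007K13Rik (0.874) and Aldh1a3 to Egln3 (0.851). Among the 9 genes, Aldh1a2 and Cyp26b1 (r = 0.903) and Aldh1a2 and Crabp1 (0.881) ran most alike, and Aldh1a1 ran against Dhrs3 (-0.667).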

How the data were processed

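Cells of 8 libraries, 2 per group, were analysed. The deposited values were raw UMI counts per gene and cell, which the authors made with Cell Ranger against mm10 (release 6 per the labels, 6.0.1 for stromal and 7.1.0 for epithelial libraries per the file headers); intron counting is not given in the sources used here. The deposited feature and barcode lists (unit other) name genes and cells. The filter of at least 500 genes and at most 10% mitochondrial UMIs is the one the study's methods give for stromal cells; it was applied here to all libraries, since the filter for epithelial cells is not given in the sources used here. Cells were gated on marker lists, a lineage needing 3 markers and a lead of 1.5 times over the next, which also drops mixed cells; no doublet caller was run. Fibroblast types were split on a score difference of 0.5. Counts were summed per library and class and tested with edgeR 4.0.16 (quasi-likelihood, TMM, low-count filter, R 4.3.3), and DESeq2 1.42.0 was an alternative. The epithelial fit held all 3 groups. Fibroblast and epithelial sums of assembloids came from the same 2 libraries, and no block result is given for that comparison. Its fit also held organoid and tissue libraries, so its p-values do not rest on the spread of those 2 libraries alone. The 9 genes were named in every comparison, and of the 48 others the called genes with the 3 highest and 3 lowest fold changes, with the 3 most alike genes per member. The values of 1 gene that this rule names are not reported here. Members and lists were chosen with earlier results of these data known, and gate scores were set after marker values were seen. Intervals cover counting error only and are 95% exact intervals; a count of 0 allows up to 3 counts. The labels do not say what separates the replicates; the study's methods call them biological, 2 per group, so p-values measure the spread between these libraries. Fibroblast classes of a library are paired by that library (correlation of deviations 0.369 to 0.554). The fits were tested on simulated data with known changes: part of the changes was missed, most of all the smaller ones, and in all 3 comparisons simulated the false calls made up a larger share of the calls than the adjusted p threshold allows, so calls near that threshold are less certain than their adjusted p.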

Additional observations from a re-analysis of the deposited data

Results flagged for a closer look

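Values above the 3-count limit appeared in cell classes of the stromal libraries that no comparison uses. In squamous epithelial-like cells, Aldh1a3 was at 21.758 CPM in library 1 (279 UMIs, 550 cells) and 47.307 in library 2 (19 UMIs, 16 cells), and Stra6 was at 129.85 (1665 UMIs) and 119.51 (48 UMIs). In glia-like cells, Rarb was at 52.712 CPM in library 1 (11 UMIs, 31 cells) and 79.473 in library 2 (16 UMIs, 26 cells), and Cyp26b1 was at 273.15 (57 UMIs) and 89.407 (18 UMIs), with 95% counting intervals of 207 to 354 and 53.0 to 141.3 that do not overlap.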

How the results depend on the processing

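Over the fold changes of the 9 genes and the alternatives run, 543 values were counted as the same, 40 lost the call, 23 gained it and 22 changed sign. Changes of sign in Aldh1a1 between fibroblast classes, given below, are not among the 22. The causes were not tested. Counts of called genes moved by over 1.5 times as follows. Telocyte-like over trophocyte-like cells gave 2992 without the low-count filter, 5022 with the library as replicate block and 3084 with a stricter gate. Mfap5/Gdf10 over trophocyte-like cells gave 329 in DESeq2, 521 without the filter, 656 with the block, 73 with a stricter gate and 0 in edgeR at 5% mitochondrial UMIs or less. Mfap5/Gdf10 over telocyte-like cells gave 2316 without the filter and 3156 with the block. Assembloid over tissue gave 6167 in goblet-like cells, organoid over tissue 3945 in stem-like and 4435 in cycling cells, and organoid over assembloid 6297 in cycling cells. Leaving out 1 library, so that the group left with 1 is assumed to vary like the others, gave 5207 to 10094 for assembloid over tissue, 5170 to 9740 for organoid over tissue and 5506 to 8815 for fibroblast over epithelial cells. Organoid over assembloid moved by less, to 7688 to 9871. With 1 stromal library left there are no residual degrees of freedom, so those values had no test. The class-specific and lineage-lead alternatives were chosen after seeing the data.

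Signs changed as follows, in log2 fold change. In assembloids over tissue, Rarb gave -0.43 at 5% mitochondrial UMIs and -0.14 without tissue 2 (0.65 without tissue 1), Dhrs3 0.37 in all passing and 0.47 in goblet-like cells, Rbp4 0.34 in colonocyte-like and 1.01 in goblet-like cells, and Aldh1a1 -0.36 without assembloid 2 (0.66 without assembloid 1). By the ratio of mean CPM, without the fit's scaling, a comparison chosen after seeing the data, Dhrs3 in goblet-like and Rbp4 in colonocyte-like cells kept a negative sign (-0.06 and -0.08). In organoids over tissue, Aldh1a2 gave -2.20 in all passing cells, Aldh1a1 -0.21, Rbp4 1.42 and Dhrs3 0.21 in stem-like cells, and Cyp26b1 -0.94 without organoid 2 and -0.19 without tissue 2 (1.02 without tissue 1). In organoids over assembloids, Aldh1a1 gave -0.0017 in DESeq2, -0.38 without assembloid 1 and -0.053 without organoid 1 (0.66 without assembloid 2), and Dhrs3 -0.75 in all passing cells. In telocyte-like over trophocyte-like cells, Crabp1 gave -0.11 and Stra6 -0.19 at 5% mitochondrial UMIs, and Stra6 -0.11 with a stricter gate. Over all settings, those without a test included, Aldh1a1 ran there from -1.03 to 0.945. In Mfap5/Gdf10 over trophocyte-like cells Aldh1a1 ran from -1.45 to 0.399. In fibroblasts over epithelial cells, Stra6 gave -6.03 with a lineage lead of 2 and -6.34 without assembloid 1 (3.80 without assembloid 2). Same-numbered epithelial libraries did not deviate together (correlations -0.0238 to 0.0291), and the replicate block there ended only the Cyp26b1 calls, at 2.40 (adjusted p = 0.056 in edgeR) over tissue and -2.06 (adjusted p = 0.0774 in edgeR) for organoids over assembloids. Few UMIs limit Crabp1, Stra6 and Aldh1a2 in epithelial cells.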
